A study of Homo sapiens with 8 samples.

Results

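The genes described here write, erase and read histone acetylation: acetyltransferases outside the MYST family, deacetylases, sirtuins, ING-family readers, and bromodomain and YEATS readers. The set was fixed as 41 named genes, and every probe annotated to one of their symbols was taken, whatever its level. Of the 41 genes, 40 had a probe (71 probes among the 47312 on the array). NCOA3 had none under its symbol and was not analysed here. After a filter on detection, 56 probes and 36 genes entered the comparison, out of 17297 genes and unnamed probes in all.

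The samples come from OVCAR-3, a cell line long established from a human ovarian carcinoma, 48 h after transfection with siRNA against HBO1 (siHBO1, 4 arrays) or with scramble siRNA (siCTRL, 4 arrays). HBO1, the protein of the gene KAT7, is an acetyltransferase of the MYST family. Each group was profiled on single-colour Illumina expression BeadChips, and the replicates are numbered 1 to 4 in both groups. Whether each replicate was its own culture is not stated, and the spread behind every p-value may thus be technical. In such bulk RNA, fewer cells of a kind and less RNA per cell cannot be told apart. The comparison asks whether mRNA of the other acetylation enzymes and readers differed when HBO1 was targeted.

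Acetyltransferases move an acetyl group from acetyl-CoA onto histone lysines, which weakens the hold of histones on DNA and creates docking sites. Deacetylases of the HDAC family remove the mark with a zinc ion at the active site, whereas sirtuins consume NAD to do so. Bromodomains and YEATS domains bind acetylated or otherwise acylated lysines, and the PHD fingers of ING proteins bind methylated histone H3 and bring acetyltransferase or deacetylase complexes to it. In HBO1 complexes the small subunit MEAF6 and either ING4 or ING5 sit beside the catalytic protein.

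On these arrays between 20504 and 22111 probes were detected, which is 43.3% to 46.7% of all probes. Of the 10 epithelial and ovarian carcinoma markers listed, 9 were detected on all 8 arrays, among them PAX8, WT1 and EPCAM, and CLDN4 was detected on 6. Of 12 measured markers of blood, endothelial and fibroblast cells, 8 were detected on fewer than 4 arrays, PTPRC, PECAM1 and COL3A1 on none, while CD14, VWF and COL1A1 were detected on all 8. A pair of features of the arrays touches the results. KAT7, on its 1 probe, had normalized log2 intensities of 6.66, 6.86, 7.04 and 7.43 on siHBO1 replicates 1 to 4, against 7.67, 7.97, 7.93 and 7.35 on siCTRL replicates 1 to 4. The array labelled siHBO1 replicate 4 therefore did not show a lower KAT7 level than its numbered control, and in the values the authors processed, both replicate 4 arrays had a median of 6.63, against 6.57 on the other 6. The log2 fold change of KAT7 was -0.73 over all arrays (SE 0.19, limma unadjusted p = 0.004, adjusted p = 0.586). With the replicate number as a block the unadjusted p was 0.00749. Over the 28 alternatives the KAT7 value ran from -1.01 to -0.33. Its unadjusted p was under 0.05 in all 28, and it passed the threshold in 1 of them. In addition, both replicate 1 arrays deviated from their groups in the same way (r = 0.783 across genes between their deviations, genes not being independent replicates).

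None of the 36 members passed the test in either direction. The fit across all genes with limma gave the members a lowest adjusted p of 1.00, and 0.440 with the replicate number as a block. In the same fit 0.0347% of all genes passed (6 genes), and 0.335% with the block (58 genes). An unadjusted p under 0.05 was reached by 0 members, where 3.79% of all genes reached it. With the block 2 members did, EP300 and KAT2B, which is 5.56% against 7.60% of all genes. The count of members past the threshold was 0 in every one of the 28 alternatives of processing and left-out arrays. All genes past it numbered 58 with the block and 0 to 31 over left-out arrays. With so few genes passing, this repeated 0 is no result about the members.

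The members' differences were small and fell on both sides of 0. Of the 36 log2 fold changes, siHBO1 minus siCTRL, 19 were positive and 17 negative, and they ran from -0.27 to 0.30 around a median of 0.04. The median over all 17297 genes was -0.01. The largest difference thus corresponded to 1.23-fold. A missed threshold does not show equality, so the intervals are given: the 95% confidence interval lay within 2-fold either way for all 36 members, as it did for 96.4% of all genes. It lay within 1.5-fold for 27 members (75.0%, against 77.5% of all genes). The 9 members whose interval reached past 1.5-fold were EP300, KAT2B, TAF1, MEAF6, ING4, HDAC7, SIRT6, SIRT7 and MLLT3.

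**Figure D1:**
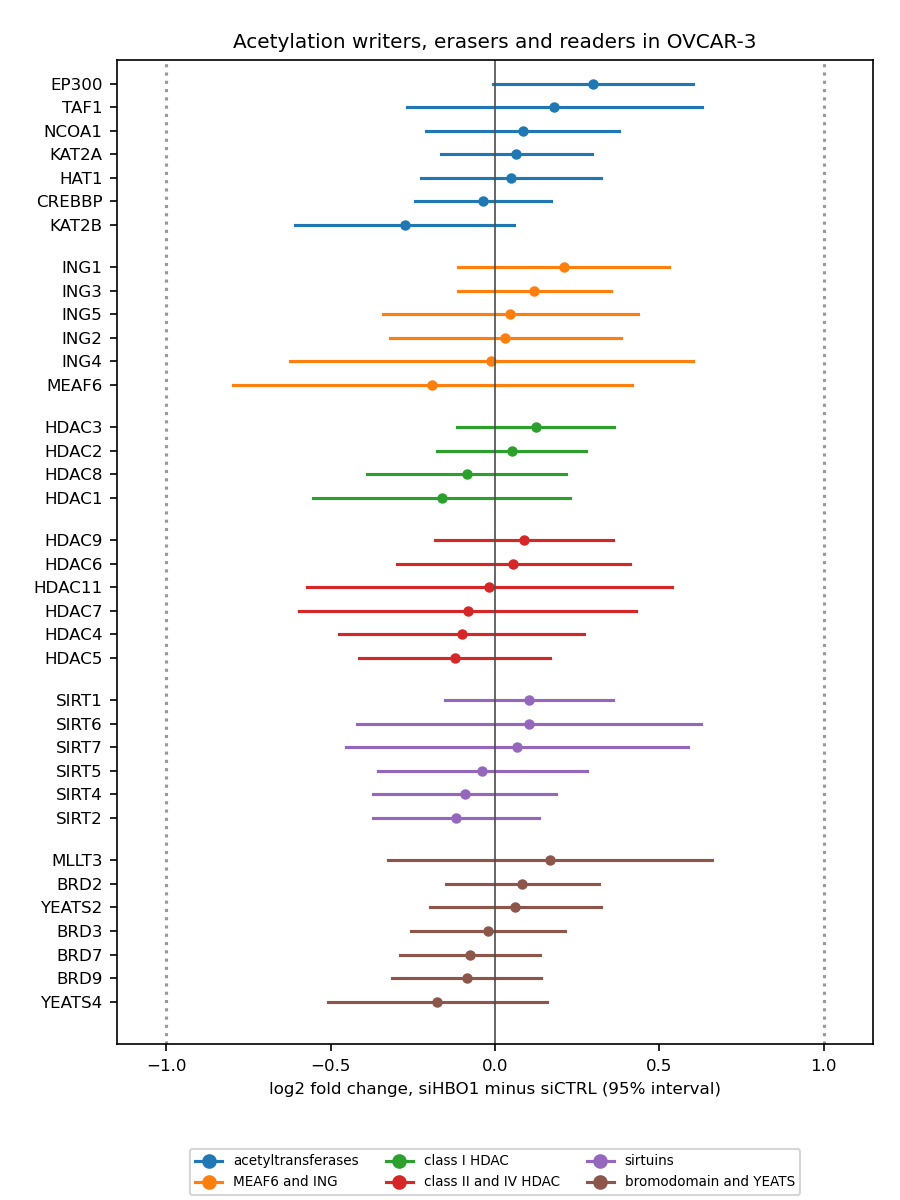
Log2 fold change of each of the 36 tested members (point) with its 95% confidence interval (line), siHBO1 minus siCTRL, n = 4 arrays each, grouped by role from acetyltransferases at the top to readers at the bottom. Dotted lines mark 2-fold. All 36 intervals cross 0 and stay within 2-fold, and EP300 at 0.30 and KAT2B at -0.27 are the outermost points.

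For 0 members did the groups lie apart, against 2.82% of all genes (1.35% with siHBO1 higher and 1.47% with siHBO1 lower). A difference of one sign in all 4 numbered pairs occurred for 1 member on the higher side, HDAC3 (2.78%, against 6.96% of all genes). It occurred for 4 on the lower side, KAT2B, MEAF6, HDAC1 and YEATS4 (11.1%, against 8.66% of all genes).

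Among the acetyltransferases, EP300 and KAT2B had the smallest p-values of all members and pointed in opposite directions. EP300 (p300) is a broad transcriptional coactivator that acetylates histone H3 at enhancers and promoters. Its log2 intensity was 8.63, 8.22, 8.53 and 8.07 on siHBO1 replicates 1 to 4, against 8.01, 8.05, 8.12 and 8.08 on siCTRL replicates 1 to 4. The 4 siCTRL arrays lay within a narrow band, siHBO1 replicates 1 to 3 lay above it, and siHBO1 replicate 4 lay inside it. Mean levels were 8.36 ± 0.26 for siHBO1, against 8.06 ± 0.05 for siCTRL (SD over 4 arrays each). The log2 fold change was 0.30 (SE 0.14, 95% interval -0.01 to 0.60, limma adjusted p = 1.00). Leaving out a pair of same-numbered arrays gave values of 0.19 (without replicate 1) to 0.40 (without replicate 4). The value was 0.21 without siHBO1 replicate 1 alone, and over the alternatives the limma adjusted p ran from 0.502 to 1.00.

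KAT2B (PCAF) is the acetyltransferase of one form of the SAGA and ATAC coactivator complexes, a place it shares with its paralog KAT2A (GCN5). Among the acetyltransferases it was singled out after its values were seen, for its p-value with the block. The log2 intensity of KAT2B was 10.03, 10.34, 10.44 and 10.49 on siHBO1 replicates 1 to 4, against 10.27, 10.69, 10.62 and 10.81 on siCTRL replicates 1 to 4. It was lower in every numbered pair, by 0.19 to 0.35 on the log2 scale, yet the groups overlapped because siCTRL replicate 1 was low as well. The log2 fold change was -0.27 (SE 0.15, limma adjusted p = 1.00), with a block SE of 0.08 and a block adjusted p of 0.440. Without both replicate 1 arrays the value was -0.29, but it was -0.18 without siHBO1 replicate 1 alone and -0.39 without siCTRL replicate 1 alone. KAT2A stood at 0.06 (95% interval -0.16 to 0.29), so the paralogs had values of opposite sign whose intervals overlap. The difference between them was not tested.

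The 120 bases just before the start of EP300 and KAT2B are shown from RefSeq (GRCh38.p14), since they had the smallest p-values. EP300 is at chr22:41092472-41092591 and KAT2B at chr3:20040326-20040445, both on the plus strand, with each CG dinucleotide in capitals (9 in EP300 and 13 in KAT2B).
EP300: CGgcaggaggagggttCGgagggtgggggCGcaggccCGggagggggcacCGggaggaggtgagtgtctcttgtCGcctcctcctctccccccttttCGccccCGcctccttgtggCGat
KAT2B: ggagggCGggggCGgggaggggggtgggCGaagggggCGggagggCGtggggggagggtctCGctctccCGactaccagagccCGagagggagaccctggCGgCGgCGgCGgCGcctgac

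Both stretches lie in promoters rich in G and C, 75.3% over the 300 bases around the start for EP300 and 80.3% for KAT2B, as the members' promoters were in general. Their median was 70.8% over the 38 members with a RefSeq window, against 58.3% over all windows and 65.0% over those of the tested genes. The letters TATAAA were in 0 of the 38 member windows on either strand, against 12.0% of all windows and 6.05% of those of tested genes.

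The other acetyltransferases lay closer to 0. CREBBP (CBP), the paralog of EP300, stood at -0.04 (95% interval -0.24 to 0.17). HAT1, which acetylates newly made histone H4 before its assembly into chromatin, measured 12.78, 12.81, 13.06 and 12.63 on siHBO1 replicates 1 to 4 and 12.59, 12.80, 12.89 and 12.81 on siCTRL replicates 1 to 4. These ranges overlapped, with siHBO1 replicate 3 above every siCTRL array and siCTRL replicate 1 below every siHBO1 array. The log2 fold change was 0.05. The nuclear receptor coactivator NCOA1 stood at 0.08. TAF1, the largest subunit of the general factor TFIID, stood at 0.18 with a wide interval (-0.27 to 0.63), and its other kept probe gave -0.05. On the brighter probe siCTRL replicate 2 read 8.90, against 7.94 to 8.15 on the other siCTRL arrays. Without that array the TAF1 log2 fold change was 0.39.

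MEAF6 and the ING proteins, the subunits of acetyltransferase and deacetylase complexes in the set, showed no shared direction: 4 of 6 were positive and 2 negative, with a median of 0.04. ING1, which joins SIN3 deacetylase complexes, had the smallest p of this role. Its log2 intensity was 9.80, 9.84, 9.95 and 9.70 on siHBO1 replicates 1 to 4, against 9.32, 9.98, 9.60 and 9.55 on siCTRL replicates 1 to 4. The highest and the lowest of these 8 values both belonged to siCTRL, and the log2 fold change was 0.21 (SE 0.14). ING2, its paralog in the same complexes, measured 11.75, 12.18, 12.02 and 12.15 in siHBO1 and 11.65, 11.99, 12.03 and 12.30 in siCTRL, in the order of the replicates. Its log2 fold change was 0.03, and that of its other kept probe 0.18. ING3, a subunit of the NuA4 complex, stood at 0.12.

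The 3 members that belong to HBO1 complexes themselves, MEAF6, ING4 and ING5, stood at -0.19, -0.01 and 0.05. The brighter MEAF6 probe read 7.44, 8.31, 8.32 and 8.16 on siHBO1 replicates 1 to 4 and 7.53, 8.54, 8.47 and 8.45 on siCTRL replicates 1 to 4. Each siHBO1 value was below its numbered control by 0.09 to 0.29, but both replicate 1 arrays lay far below the rest, so the spread within a group exceeded the difference (SE 0.27, and 0.08 with the block). The value was 0.0145 without siHBO1 replicate 1 and -0.44 without siCTRL replicate 1. The other MEAF6 probe pointed the other way, at 0.25 (SE 0.18), so no direction can be given for the gene. ING4 had an SE of 0.27, like MEAF6, and with the block its SE of 0.25 was the largest of the 3. Its values were 8.92, 9.26, 8.47 and 8.92 on siHBO1 replicates 1 to 4 and 9.67, 8.60, 8.95 and 8.39 on siCTRL replicates 1 to 4, with 2 pairs higher and 2 lower.

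**Figure D2:**
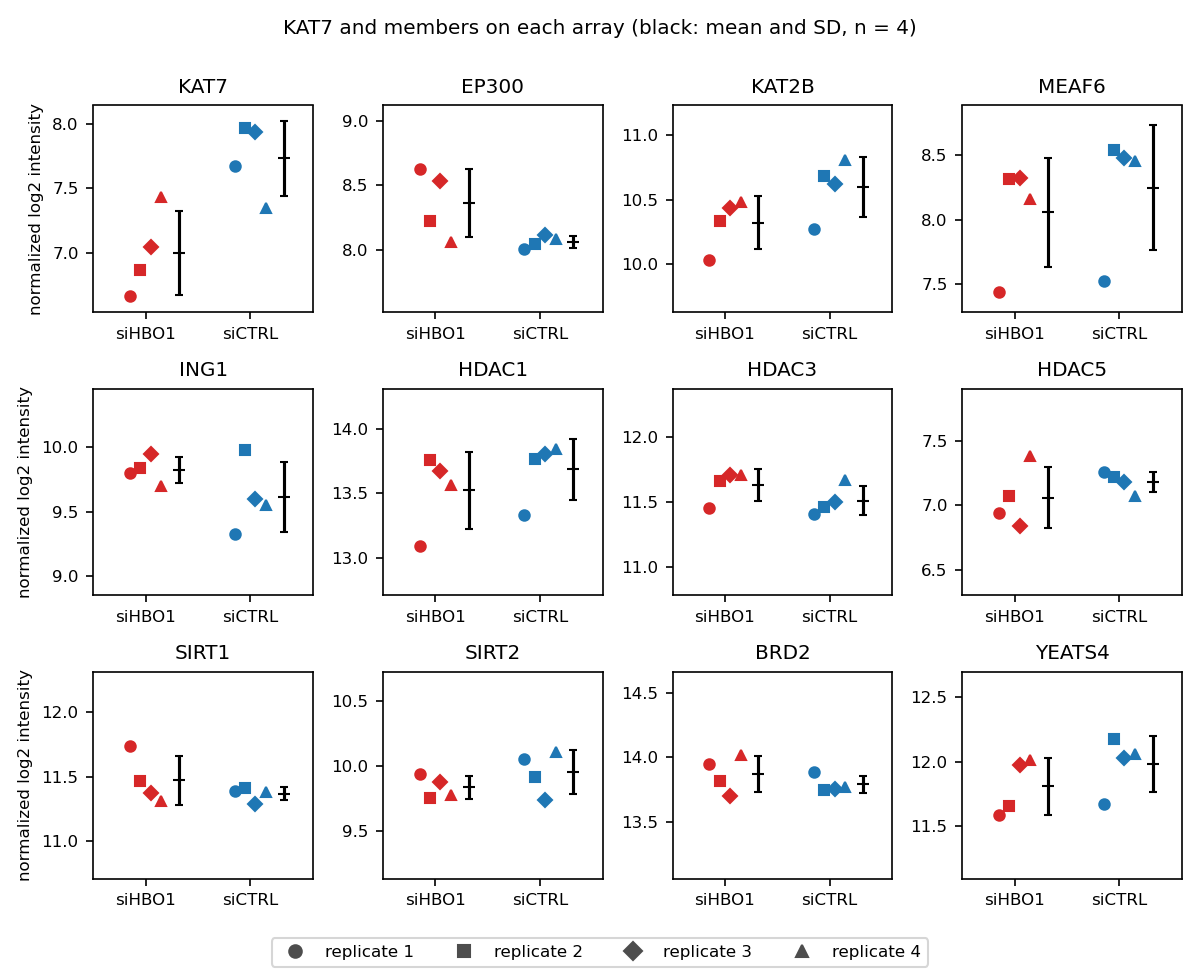
Normalized log2 intensity of KAT7 and 11 members on each array, siHBO1 (red, left) and siCTRL (blue, right), with symbols for the replicate number and the mean and SD in black (n = 4). Every panel spans the same range of log2 units. The 4 siCTRL values of EP300 lie close together while its siHBO1 values spread, and in the panels of MEAF6 and HDAC1 replicate 1 lies below the other replicates in both groups.

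Class I deacetylases, the nuclear catalytic subunits of the SIN3, NuRD, CoREST and NCOR corepressor complexes, stayed within 1.5-fold for all 4 members. HDAC3, the enzyme of the NCOR complex, had log2 intensities of 11.45, 11.66, 11.71 and 11.71 on siHBO1 replicates 1 to 4, against 11.41, 11.46, 11.50 and 11.67 on siCTRL replicates 1 to 4. It was higher in each pair, by 0.04 to 0.21, and the ranges overlapped (log2 fold change 0.12, SE 0.11, limma adjusted p = 1.00). HDAC1 read 13.09, 13.76, 13.67 and 13.56 in siHBO1 and 13.33, 13.76, 13.80 and 13.84 in siCTRL, in the order of the replicates. It was lower in each pair, in replicate 2 by less than 0.01, with a log2 fold change of -0.16 (SE 0.17). Without siHBO1 replicate 1 that value was -0.0176, and without siCTRL replicate 1 it was -0.27. HDAC2, which pairs with HDAC1 in the same complexes, measured 13.88, 13.95, 13.96 and 13.84 in siHBO1 and 13.70, 13.88, 13.83 and 14.02 in siCTRL. The siHBO1 values lay inside the siCTRL range, and the log2 fold change was 0.05 (95% interval -0.18 to 0.28). HDAC8, which acts outside these complexes, stood at -0.09.

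Of the class II and class IV deacetylases 6 of 7 were tested, with 2 positive and 4 negative log2 fold changes and a median of -0.05. HDAC10, a polyamine deacetylase, was not well above background on any array. HDAC5, one of the class IIa enzymes that shuttle between nucleus and cytoplasm, measured 6.94, 7.07, 6.84 and 7.38 on siHBO1 replicates 1 to 4, against 7.26, 7.22, 7.19 and 7.07 on siCTRL replicates 1 to 4. Replicates 1 to 3 were lower and replicate 4 was higher in siHBO1 than its control (log2 fold change -0.12, SE 0.13). HDAC9, of the same class, measured 10.04, 9.99, 10.17 and 10.12 in siHBO1 and 9.88, 10.26, 9.80 and 10.01 in siCTRL. The siCTRL arrays held both its highest and its lowest value, and the log2 fold change was 0.09. HDAC4 and HDAC7, also class IIa, stood at -0.10 and -0.08, the tubulin deacetylase HDAC6 at 0.06, and HDAC11, the class IV enzyme, at -0.02.

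In HDAC7 and HDAC11, a single array moved the value by about its standard error or more. HDAC7 had 10.58 on siHBO1 replicate 1, against 9.38 to 9.75 on the other siHBO1 arrays and 9.77 to 10.09 in siCTRL. Without siHBO1 replicate 1 its log2 fold change was -0.33 (limma adjusted p = 0.841), in place of -0.08. HDAC11 had 8.14 on the same array, against 9.05 to 9.32 on the other siHBO1 arrays and 8.73 to 9.17 in siCTRL. Over the alternatives its value ran from -0.14 to 0.25.

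Sirtuins were tested for 6 of 7 genes and split evenly, 3 positive and 3 negative, with a median of 0.01. SIRT3, the main mitochondrial deacetylase, was not well above background on any array. SIRT1, the nuclear sirtuin that deacetylates p53 and histones, measured 11.74, 11.46, 11.37 and 11.31 on siHBO1 replicates 1 to 4, against 11.39, 11.41, 11.29 and 11.38 on siCTRL replicates 1 to 4. The siHBO1 replicates 1 and 2 lay above every siCTRL array, and replicates 3 and 4 lay inside the siCTRL range (log2 fold change 0.10, SE 0.11). SIRT2, a mainly cytoplasmic enzyme, measured 9.94, 9.75, 9.88 and 9.77 in siHBO1 and 10.05, 9.91, 9.73 and 10.11 in siCTRL, with a log2 fold change of -0.12 (SE 0.11). The siHBO1 values lay inside the siCTRL range. The mitochondrial SIRT4 and SIRT5 stood at -0.09 and -0.04. SIRT7, a nucleolar sirtuin, stood at 0.07, and SIRT6, a chromatin enzyme, at 0.10. SIRT6 was the one tested member not detected on all 8 arrays: it was detected on 3 siHBO1 and 2 siCTRL arrays, so its value rests on a probe near background.

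The bromodomain and YEATS readers were tested for 7 of 9 genes, with 3 positive and 4 negative values and a median of -0.02. BRD8, a NuA4 subunit, and MLLT1 (ENL), a reader in the super elongation complex, were not well above background on any array. BRD2, a BET protein that keeps acetylated chromatin accessible to transcription, measured 13.95, 13.82, 13.70 and 14.02 on siHBO1 replicates 1 to 4, against 13.89, 13.75, 13.75 and 13.77 on siCTRL replicates 1 to 4. The siCTRL range lay inside the siHBO1 range (log2 fold change 0.08, SE 0.10). YEATS4 (GAS41), a reader in the NuA4 and SRCAP complexes, had the smallest p of this role. It measured 11.59, 11.65, 11.98 and 12.01 in siHBO1 and 11.67, 12.17, 12.03 and 12.06 in siCTRL, lower in each pair but by 0.52 in replicate 2 and by 0.09 or less in the others. The log2 fold change was -0.18 (SE 0.15, limma adjusted p = 1.00).

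BRD3, the other BET protein of the set, stood at -0.02, and BRD7 and BRD9, subunits of different SWI/SNF remodelling complexes, at -0.08 and -0.09. YEATS2, the reader of the ATAC complex, stood at 0.06. MLLT3 (AF9), the paralog of MLLT1, had the widest interval of the readers, at 0.17 (-0.33 to 0.66). Its values were 7.59, 7.42, 7.38 and 6.88 on siHBO1 replicates 1 to 4 and 7.53, 6.93, 6.68 and 7.45 on siCTRL replicates 1 to 4. Replicates 2 and 3 were higher and replicate 4 lower in siHBO1 than the numbered control.

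Several kept probes stood behind 15 of the members, and for 6 of these they had the same sign. For the other 9 (BRD7, CREBBP, HDAC9, ING3, MEAF6, NCOA1, SIRT2, SIRT5 and TAF1) the probes of a gene differed in sign. Probes of SIRT5 ran from -0.05 to 0.03 and those of CREBBP from -0.04 to 0.06, while those of HDAC9 ran from -0.15 to 0.14. The second HDAC2 probe gave 0.31, where the brighter one gave 0.05, and it was detected on 6 of the 8 arrays.

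The mean square of the replicate number exceeded that of the siRNA group for 26 of the 36 members (72.2%), near the background of 73.5% of all genes and so no result about the members. In both groups replicate 1 lay on the same side of replicates 2 to 4 for 30 members (83.3%, against 73.9% of all genes), 16 lower and 14 higher. Of the 17297 genes tested, 7572 were lower on replicate 1 in both groups and 5212 higher. MEAF6 lay 0.83 lower on replicate 1 in siHBO1 and 0.96 lower in siCTRL on the log2 scale, and HDAC1 0.57 and 0.47 lower. SIRT7 went the other way, 0.45 higher in siHBO1 and 0.69 higher in siCTRL. All 6 MEAF6 and ING genes and all 7 tested readers kept their side in both groups, the first mostly lower (5 of 6) and the second mostly higher (5 of 7). What replicate 1 shares is not stated in the labels, and its part in the members' values was not tested beyond the fits with the block and without replicate 1.

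**Figure D3:**
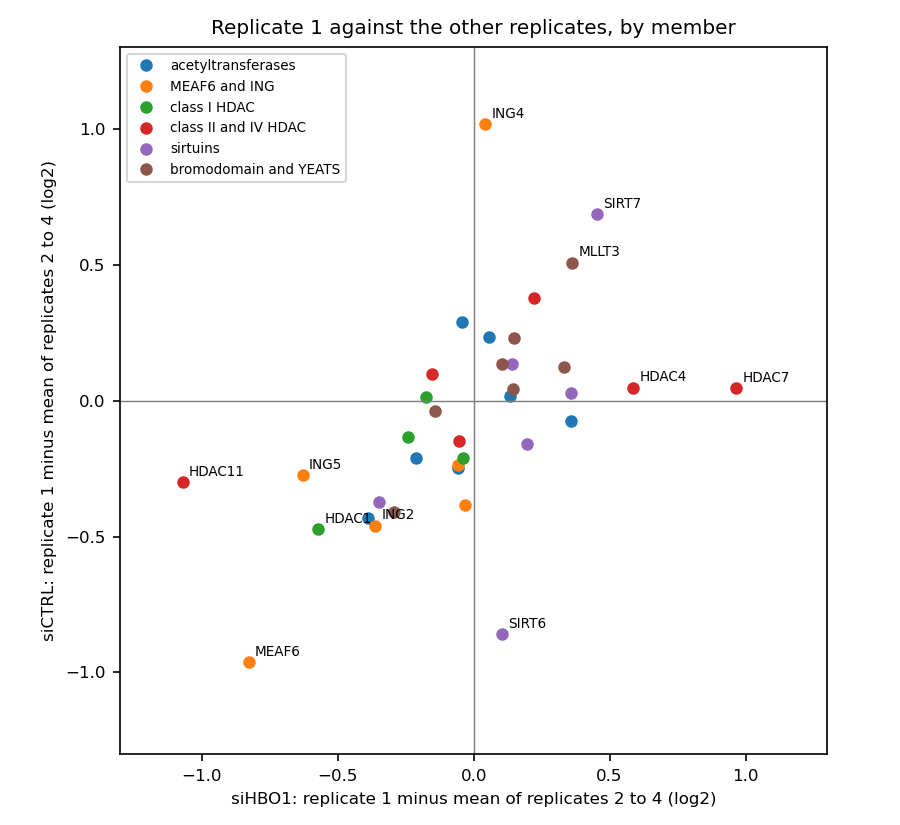
Replicate 1 minus the mean of replicates 2 to 4 for each tested member, in siHBO1 (horizontal axis) and siCTRL (vertical axis), in log2 units, coloured by role. Points in the lower left or upper right deviated the same way in both groups, as 30 of 36 did. MEAF6 and HDAC1 lie low in both, SIRT7 high in both, and HDAC4, HDAC7, HDAC11, ING4 and SIRT6 deviate mainly in 1 group.

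Other genes of acetylation biology were counted from lists chosen with earlier results of these data known. In the fit without the block 0 passed the threshold in 6 lists with 109 tested genes. As 0.0347% of all genes passed it, this 0 is no result about the lists. Of the MYST family and the scaffolds of its complexes 12 were tested, with a median of 0.04, the smallest p after that of KAT7 belonging to JADE2 (0.22) and JADE3 (0.10), both scaffolds of HBO1 complexes. Other acetyltransferases had a median of 0.04 over 10 genes, and the smallest p-values were those of ESCO2 at 0.25, GTF3C4 at 0.16 and KAT14 at -0.16. Subunits of SAGA, ATAC and NuA4 had a median of -0.01 over 24, with SUPT20H at -0.24, MBIP at 0.20 and RUVBL2 at -0.25.

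Deacetylase complex subunits had a median of -0.03 over 27 genes. RCOR2, a CoREST scaffold, was lower on every siHBO1 array, at 8.76, 8.91, 8.88 and 8.86, than on any siCTRL array, at 9.15, 9.23, 9.11 and 9.24. Its log2 fold change was -0.33 (SE 0.09) with a limma adjusted p of 0.653. TBL1XR1, a subunit of the HDAC3 complex, stood at -0.25 and SAP30L, of the SIN3 complex, at 0.16 with its groups also apart. Of the 27 genes, groups lay apart for 1 with siHBO1 higher and 1 with siHBO1 lower, where 2.82% of all genes did so. None of these passed the threshold with the block either.

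The genes that supply acetyl-CoA and NAD, the cosubstrates of acetyltransferases and sirtuins, had a median of -0.04 over 13. NMNAT2, which makes NAD in the cytoplasm, measured 9.62, 9.62, 9.36 and 9.50 in siHBO1, against 9.10, 9.06, 8.76 and 8.93 in siCTRL. The groups were fully apart, with a log2 fold change of 0.56 (SE 0.11, limma adjusted p = 0.262, and 0.0597 with the block). Groups lay apart for this 1 gene of the 13, where 2.82% of all genes did so. NMNAT3 and NMRK1 stood at -0.23 and -0.20.

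Of the other bromodomain, YEATS and double PHD readers, 23 were tested, with a median of 0.08. With the block 1 of them, SP110, rose, where 0.335% of all genes passed. Without it none passed, where 0.0347% of all genes did. Groups lay apart for 1 with siHBO1 higher and 1 with siHBO1 lower, where 2.82% of all genes did so. SP110, a nuclear body protein with a bromodomain that interferon induces, measured 11.91, 12.46, 12.28 and 12.27 on siHBO1 replicates 1 to 4, against 10.80, 11.52, 11.43 and 11.69 on siCTRL replicates 1 to 4. Every siHBO1 array was above every siCTRL array, with a log2 fold change of 0.87 (SE 0.20, limma adjusted p = 0.384, and 0.0384 with the block, block SE 0.11). SP100, the founding member of that nuclear body family, stood at 0.58 (SE 0.24, adjusted p = 1.00, and 0.0999 with the block). ATAD2B, a bromodomain AAA ATPase, averaged 7.35 ± 0.24 in siHBO1, against 7.86 ± 0.19 in siCTRL (SD, n = 4 each), and every siHBO1 array was below every siCTRL array (log2 fold change -0.52, SE 0.15, adjusted p = 0.707, and 0.358 with the block).

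**Figure D4:**
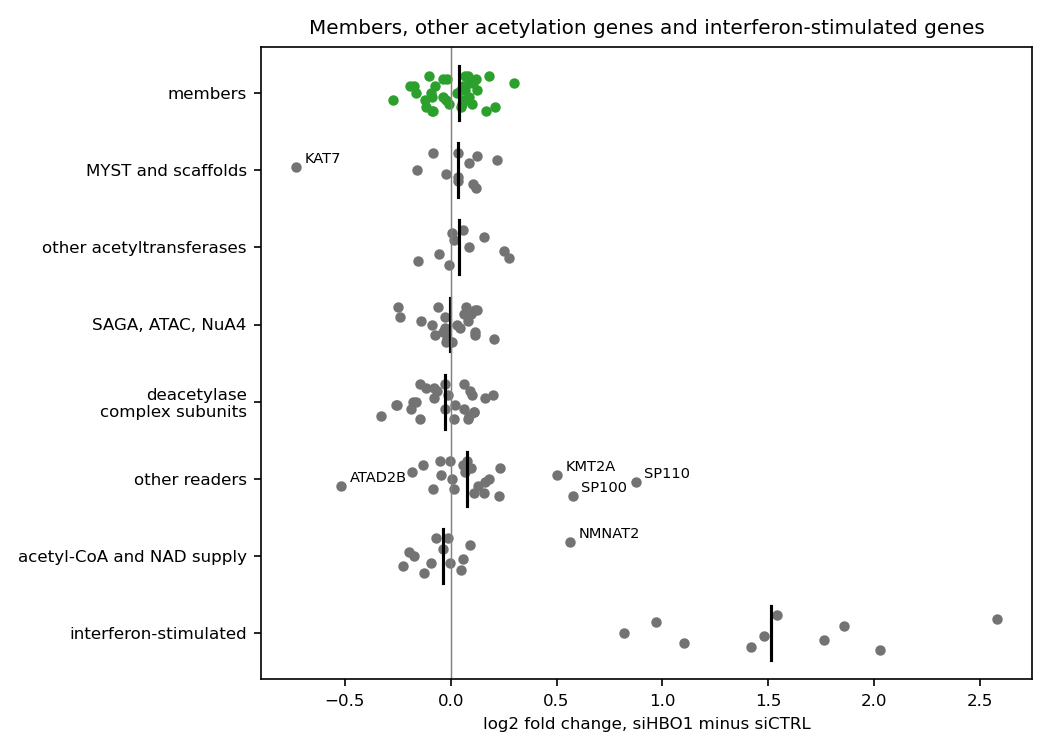
Log2 fold change, siHBO1 minus siCTRL, of the 36 members (green), the genes of 6 further acetylation lists (grey) and 10 interferon-stimulated genes, with the median of each list as a black bar. Members lie between -0.27 and 0.30, the labelled genes are those of the acetylation lists beyond 0.45 in either direction, and the interferon-stimulated genes lie between 0.82 and 2.58.

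Of the 5 genes that rose in the fit without the block, 3 were on the list of 10 interferon-stimulated genes (7 of the 10 rose with the block). The list stands for the largest change of the series and was chosen with earlier results known, so these counts are no test. With that change in view, the members' promoters were searched for the interferon-stimulated response element, the binding motif of ISGF3 and interferon regulatory factors. The letters GAAA, any 2 bases and GAAA again were searched on both strands of RefSeq windows of 300 bases (GRCh38.p14), from 250 before to 50 after each gene's start. Of the 41 members 38 matched a window, and 1 held the motif (2.63%), YEATS2, whose log2 fold change was 0.06. Over all 27305 windows the share was 3.65%, and over those of tested genes it was 2.765%. In the list of 10 interferon-stimulated genes, chosen with its rise known, 7 of 8 windows held it, among them that of CXCL10. CXCL10 rose by 1.76 on the log2 scale (limma adjusted p = 0.0442). Neither SP110 nor SP100 held these letters. A match is a description of the letters and not a binding site. The sequences of YEATS2 and CXCL10 are shown because both carry the motif beside different responses. YEATS2 has 2 matches in its window, of which 1 is shown, and CXCL10 has 1, with the shown match in capitals: YEATS2 at chr3:183710132-183710191 on the plus strand and CXCL10 at chr4:76023684-76023743 on the minus strand.
YEATS2: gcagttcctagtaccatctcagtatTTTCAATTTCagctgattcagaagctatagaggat
CXCL10: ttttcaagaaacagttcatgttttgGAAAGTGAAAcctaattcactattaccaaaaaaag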

How the data were processed

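For each array the authors deposited the non-normalized intensity of every probe with its detection p-value, per the file headers. They also deposited processed values, on a scale read from the values as log2 or similar, which the sources used here leave unstated. Their median was 6.57 on replicates 1 to 3 of both groups and 6.63 on both replicate 4 arrays, and they correlated with the log2 intensities at r = 0.989 to 0.994 across probes. They served only as an alternative. GenomeStudio and lumi were used, per the submitters' processing notes, with settings not stated there. The intensities were corrected with nec of limma 3.58.1 (an offset of 16, background estimated through detection p-values). Quantile normalization and log2 followed, in R 4.3.3. The filter kept 21377 of 47312 probes, those detected (p under 0.05) on 4 or more of the 8 arrays. A gene was its brightest kept probe, named from the platform annotation.

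Groups were compared with lmFit and eBayes (siHBO1 minus siCTRL, 2-sided). P-values were adjusted by Benjamini and Hochberg across the 17297 genes, at a threshold of 0.05. The fit was tested on simulated data. Deviations of same-numbered arrays correlated at r = 0.783, 0.324, 0.397 and 0.217 for replicates 1 to 4, each above 0.1, so the numbers were also fitted as a block. For replicates 2 to 4 the highest correlation with a different number was larger (0.404, 0.404 and 0.383). The number of arrays limits the precision.

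Values on every array are given for KAT7, for members past the threshold, at an unadjusted p under 0.05 or with groups apart, and in each role for the member with the smallest p and the brightest one. KAT2B, MEAF6, ING4, HDAC1, HDAC7, HDAC11 and MLLT3 were added after their values were seen. Of other lists the 3 smallest p-values are named. Members and lists were chosen with earlier results of these data known. Alternatives covered the block, normalization, background, detection filter, choice of probe, variance model and left-out arrays.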

Additional observations from a re-analysis of the deposited data

Results flagged for a closer look

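Within groups of 4 arrays, 5 of 114 group-wise sets of values held an array whose gap to the nearest of the others exceeded Dixon's 95% critical value, where chance flags about 1 in 20. For MEAF6, siCTRL replicate 1 stood at 7.53 on the log2 scale, against 8.45 to 8.54 on the other siCTRL arrays. For HDAC1 the same array stood at 13.33, against 13.76 to 13.84. For BRD2 it stood at 13.89, against 13.75 to 13.77. For TBL1XR1 it stood at 11.18, against 11.51 to 11.56. For SP100, siHBO1 replicate 1 stood at 9.37, against 10.23 to 10.28 on the other siHBO1 arrays. The first 4 of these values come from 1 array, siCTRL replicate 1.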

How the results depend on the processing

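Members past the threshold numbered 0 in all 28 alternatives (limma, with 0 to 4 at an unadjusted p under 0.05). Few genes passed in the settings counted below, so this 0 is no result about the members. In all alternatives 14 of 36 members kept their sign, among them EP300 (0.17 to 0.40), KAT2B (-0.39 to -0.18) and HDAC3 (0.09 to 0.18). The alternatives reuse the same arrays, and some, such as the block, cannot change the value. The share of all genes that kept their sign was not counted, so this 14 is no result about the members. Members at an unadjusted p under 0.05 numbered 2 with the replicate block and 1 of 40 with no filter on detection. They numbered 0 to 4 over the fits that left out arrays (3 without replicate 1 and with the block). Among all genes, 1314 of 17297 reached that p with the block and 1378 of 37247 with no filter. Over left-out arrays 418 to 1388 of 17297 did (1256 without replicate 1 and with the block). With so few members, the member counts at this p are no result about them. Members with groups apart numbered 1 with no filter and 0 to 5 over left-out arrays, which compare fewer arrays (3 without replicate 2 and with the block). The share of all genes apart was not counted in these settings, so these counts are no result about the members. The median log2 fold change of the tested members was 0.071 with median scaling, where that over all genes was 0.0165. For the members it ran from -0.0174 to 0.0424 over left-out arrays (with the block, 0.0081 without replicate 1 and -0.0067 without replicate 2). Genes past the threshold numbered 58 with the replicate block, 18 with a variance trend, 16 with no background correction and 11 at offset 50. They numbered 0 with median scaling, no normalization, the authors' values or every kept probe (limma, with 367, 169, 626 and 792 at an unadjusted p under 0.05), and 0 to 31 over left-out arrays (418 to 1388 at that p), 0 without siHBO1 replicate 2, 3 or 4 or any 1 siCTRL array. KAT7 was -0.33 with no background correction and -1.01 to -0.60 over left-out arrays. It passed in 1 of the 28 alternatives, without replicate 4 and with the block (-1.01, adjusted p = 0.0429), the pair in which its level was not lower in siHBO1. The causes were not tested. Probes near background limit SIRT6, and 4 members below it have no value.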
